A study of Solanum lycopersicum with 6 samples.

Results

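Softening of tomato fruit rests on the loosening of its cell walls, and 8 genes for cell wall enzymes and loosening proteins are described here, of 35768 gene models in the deposited table. Their loci were listed by identifier and not by their measured values, though with earlier results of these data known. They are Solyc10g080210 (PG2a), Solyc03g111690 (the pectate lyase PL), Solyc12g008840 (TBG4), Solyc06g051800 (EXP1) and Solyc09g010210 (CEL2). The others are Solyc07g064170 and Solyc07g064180 (2 pectin methylesterases of a cluster on chromosome 7) and Solyc03g123630 (PMEU1). All 8 were found in the table. The table gives identifiers only, so the names are those of the listing. In the RefSeq gene table (assembly SLM_r2.1), which holds no identifiers of this kind, a matching gene was sought for each. It lay on the same chromosome for all 8 and within 1.65% of the same rank along it. Matching was by the listed name (PG2 for PG2a). Each chromosome 7 member was instead set against the nearest of 3 pectin methylesterase genes. On chromosome 7 that table has 3 pectin methylesterase genes next to each other, and no symbol of theirs is assigned here to a locus.

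Pectin fills the middle lamella between cells and the wall around the cellulose and hemicellulose fibres. Pectin methylesterases strip methyl groups from its backbone, and the backbone can then be cut by polygalacturonase and pectate lyase. Beta-galactosidases trim galactan side chains, endoglucanases cut glucan chains, and expansins loosen the contact between cellulose and hemicellulose without cutting it. In tomato, PG2a, PL, TBG4 and EXP1 are known as genes whose transcripts accumulate at ripening, whereas pectin methylesterase is abundant in green fruit as well.

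The fruit wall of cultivar Ailsa Craig was sampled at its shoulder, the part near the stalk, at 30 DPA (in common usage, days post anthesis), from greenhouse plants under a light and dark cycle. The 6 RNA libraries formed 2 groups of 3, wild type (WT) and slgols2, a knock-out made by CRISPR-Cas9 editing, and no other treatment is given for either. The labels do not say how many edited lines were used, whether fruits were pooled or whether replicates were separate plants, so p-values cover only library-to-library spread, which could be technical. No identifier is paired with the edited gene in the sources used here, so its own level is not given as a check of the labels.

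Values are FPKM, the fragments of a gene per kilobase of its length and per unit of library depth. Depths, recovered from the steps between low values, lay between 15593387 and 17941974 fragments. The slgols2 libraries were uneven across the tested genes, which are not independent replicates. Replicates 1 and 2 correlated at 0.957, while replicate 3 correlated with them at 0.849 and 0.869. With the WT libraries, slgols2 replicate 1 correlated at 0.858 to 0.888, replicate 2 at 0.883 to 0.914 and replicate 3 at 0.878 to 0.903. Over the whole table, 36 of 15695 tested genes (0.229%) differed between the genotypes (limma, Benjamini-Hochberg adjusted p of 0.05), and the count fell to 7 when WT replicate 1 was left out and rose to 279 when slgols2 replicate 3 was. The 3 values of one genotype lay wholly above those of the other in 19.2% of the tested genes.

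At this stage the 8 genes divided into abundant pectin methylesterases and scarce depolymerising and loosening genes. The 3 pectin methylesterases gave between 99.5% and 99.7% of the summed FPKM of the 8 in every library. PG2a was close to absent, and PL, TBG4, EXP1 and CEL2 stood between 0.544 and 7.05 FPKM. None of the 7 genes that could be tested passed the threshold between slgols2 and WT (limma), against 0.229% of all tested genes, and 2 of them, PL and EXP1, had an unadjusted p under 0.05, which 12.0% of all tested genes reached. Limma-voom on recovered reads, an alternative added after seeing the data, also gave 0. It called 1 of 15675 genes in all, so its 0 for the members tells little. The median log2 change of the 7 was -0.34, beside 0.00 over all tested genes. The groups did not overlap for 3 of the 7, PL and CEL2 lower and EXP1 higher in slgols2, beside 19.2% of all tested genes (9.59% lower and 9.60% higher). EXP1 and CEL2 had means over the 6 libraries of 1.18 and 1.07 FPKM and so passed the minimum of 1 FPKM narrowly. PG2a did not reach it.

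**Figure D1:**
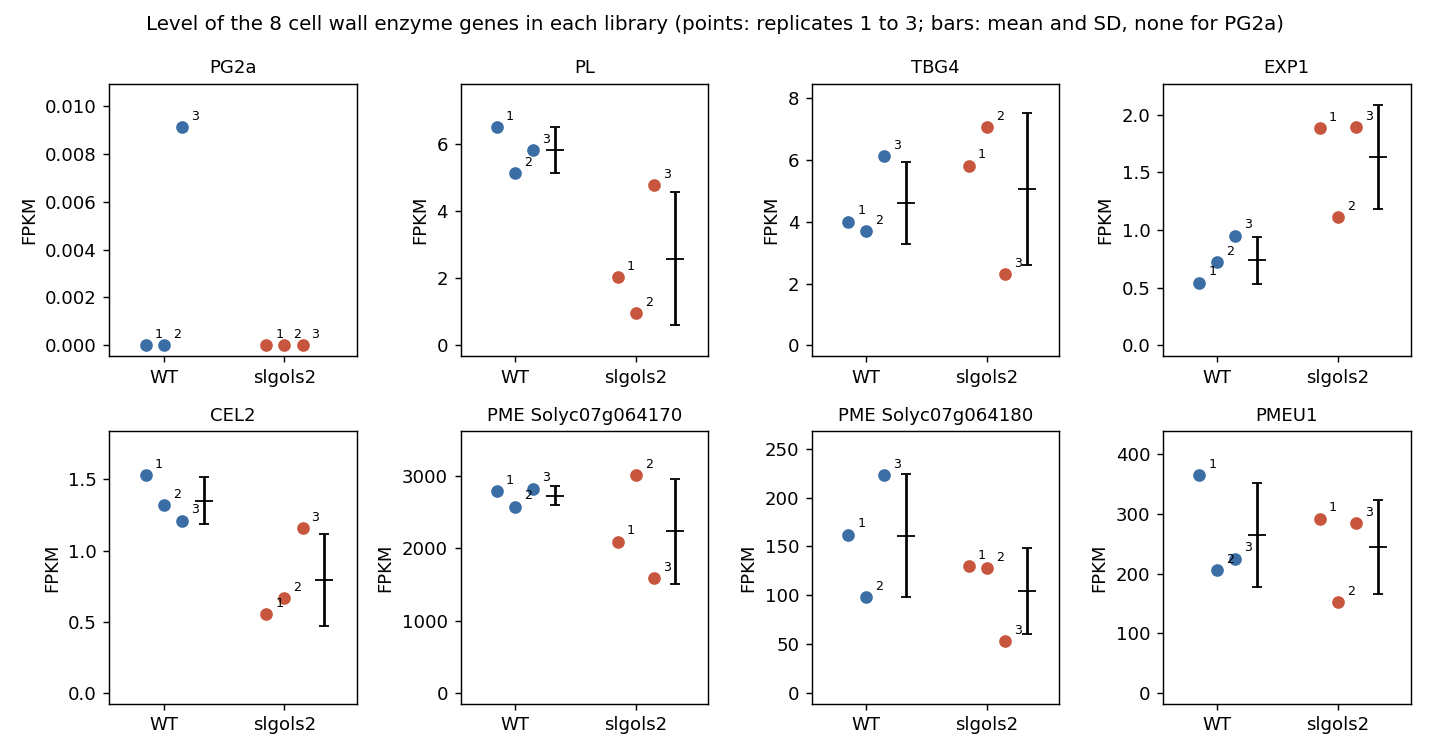
Level (FPKM, linear axes that differ between panels) of each of the 8 genes in each library, with points numbered by replicate and bars for the mean and SD of 3 libraries (none for PG2a). In the PL and CEL2 panels all 3 slgols2 points lie under the WT points, with replicate 3 nearest to them, and in the EXP1 panel all 3 lie above; in the other panels the groups overlap.

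PG2a encodes the polygalacturonase that cuts the demethylated pectin backbone in ripe fruit. It was listed at 0 in 5 of the 6 libraries and at 0.0091 FPKM in WT replicate 3, a value taken here as 1 read, which implies a gene length of 6910 bases (the RefSeq span of PG2 is 5844 bases). With that assumed length a floor of 3 reads, which a count of 0 allows, corresponds to between 0.0242 and 0.0278 FPKM in these libraries and covers counting error only. No difference between the genotypes was detectable at this depth.

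PL, the pectate lyase that cuts the same backbone by elimination, stood at 6.50, 5.14 and 5.82 FPKM in WT replicates 1, 2 and 3. In slgols2 replicates 1, 2 and 3 it stood at 2.03, 0.963 and 4.78 FPKM. All 3 slgols2 values lay under all 3 WT values, but replicate 3 came near the lowest WT library. The means were 5.82 ± 0.682 in WT and 2.59 ± 1.97 FPKM in the mutant (SD, n = 3 each), a 2.25-fold lower mean. On the log2(FPKM + 1) scale the difference was -1.06 with a standard error of 0.38 and a 95% interval from -1.99 to -0.13, and it did not pass the adjustment over all genes (limma adjusted p = 0.375). The reads behind these values numbered 85 to 624 per library. PL passed with limma's array quality weights (adjusted p = 0.0179), which gave slgols2 replicate 3 a weight of 0.173 and replicate 2 one of 4.83. That fit called 2028 of 15695 tested genes, against 36 in the main fit. Over the other alternatives the adjusted p of PL ran from 0.051, without slgols2 replicate 3, to 0.764. Without slgols2 replicate 2 the log2 difference was -0.70, and with slgols2 replicate 3 alone against WT, chosen after seeing the data, it was -0.23. The gene length behind the PL values was 5500 bases against a span of 2127 bases for PL in the RefSeq table. The PL level relative to other genes therefore depends on which length is used. What else the longer gene model covers was not tested, so the genotype difference is also that of this model.

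TBG4, a beta-galactosidase that releases galactose from pectin side chains, stood at 4.0, 3.69 and 6.13 FPKM in WT replicates 1, 2 and 3 and at 5.81, 7.05 and 2.31 FPKM in slgols2 replicates 1, 2 and 3. The slgols2 libraries held both the highest and the lowest value, so the groups overlapped. The means were 4.61 ± 1.33 in WT and 5.06 ± 2.46 FPKM in the mutant (SD, n = 3 each). On the log2 scale slgols2 differed by 0.04, with a standard error of 0.37 and a 95% interval from -0.85 to 0.93 (limma adjusted p = 0.980), which leaves room for changes of either sign. Within the groups TBG4 varied more on the log2 scale than 80.9% of tested genes.

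EXP1, the expansin of ripening fruit, was the one tested gene of the 8 whose values were all higher in slgols2. It stood at 0.544, 0.723 and 0.951 FPKM in WT replicates 1, 2 and 3. In slgols2 replicates 1, 2 and 3 it stood at 1.88, 1.11 and 1.89 FPKM. The slgols2 mean was 2.20-fold that of WT, at 1.63 ± 0.449 against 0.739 ± 0.204 FPKM (SD, n = 3 each). The log2 difference was 0.59 with a standard error of 0.19 and a 95% interval from 0.12 to 1.05 (limma adjusted p = 0.335). At these low values the pseudocount of 1 understates the change, which was 1.03 with a pseudocount of 0.1 (adjusted p = 0.350, and 0.133 to 0.740 over all alternatives). The values rested on 16 to 25 reads in the WT and 30 to 57 in the slgols2 libraries.

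CEL2, an endoglucanase known from softening and abscising tissue, stood at 1.53, 1.32 and 1.21 FPKM in WT replicates 1, 2 and 3 and at 0.555, 0.668 and 1.16 FPKM in slgols2 replicates 1, 2 and 3. As for PL, the slgols2 values lay under all WT values and replicate 3 came closest to them. The means were 1.35 ± 0.165 and 0.795 ± 0.323 FPKM (SD, n = 3 each), 1.70-fold lower in slgols2. The log2 difference was -0.40 with a standard error of 0.18 and a 95% interval from -0.84 to 0.03 (limma adjusted p = 0.443). CEL2 passed with array quality weights (adjusted p = 0.0385), in the fit that called 2028 of 15695 tested genes. For CEL2 the other alternatives gave an adjusted p between 0.107 and 0.842. Its reads numbered 53 to 142 per library.

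EXP1 and CEL2 were of similar abundance in FPKM, and on that scale they changed places between the genotypes. The ratio of EXP1 to CEL2 FPKM was 0.355, 0.547 and 0.789 in the WT and 3.39, 1.66 and 1.62 in the slgols2 libraries. CEL2 was the higher of the pair in all 3 WT libraries and EXP1 in all 3 slgols2 libraries (exact permutation test, two-sided, p = 0.10, the least possible with 3 libraries a group). This ratio was chosen with the values known. Which gene is the higher depends on the gene lengths behind FPKM, 1686 bases for EXP1 and 5318 bases for CEL2. In reads, CEL2 stood at 142, 121 and 100 in WT and 53, 57 and 101 in slgols2 replicates 1, 2 and 3. EXP1 stood at 16, 21 and 25 reads in WT and 57, 30 and 52 in slgols2. By reads, EXP1 was the higher in slgols2 replicate 1 only. The ratio of TBG4 to PL overlapped between the groups, at 0.615, 0.718 and 1.05 in WT and 2.86, 7.33 and 0.485 in slgols2 (exact permutation p = 0.40). Summed over PG2a, PL, TBG4, EXP1 and CEL2, the level was 12.6, 10.9 and 14.1 FPKM in the WT libraries and 10.3, 9.79 and 10.1 FPKM in those of slgols2.

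The pectin methylesterase gene Solyc07g064170 was among the most abundant transcripts of the fruit wall. It stood at 2790, 2575 and 2824 FPKM in WT replicates 1, 2 and 3, where it ranked 9, 11 and 8 among all gene models. In slgols2 replicates 1, 2 and 3 it stood at 2094, 3012 and 1594 FPKM, with ranks of 19, 9 and 14. The highest and the lowest library were both slgols2, so the groups overlapped, and the slgols2 SD of 719 FPKM was well above the WT SD of 135 FPKM. The means were 2729 FPKM for WT and 2233 FPKM for slgols2 (n = 3 each). In log2 terms this was -0.34, with a standard error of 0.28 and a 95% interval from -1.0 to 0.33 (limma adjusted p = 0.668). This gene alone took between 0.452% and 0.824% of the FPKM sum of a library.

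The neighbouring pectin methylesterase Solyc07g064180 was the more variable of the pair. It stood at 162, 98.0 and 223 FPKM in WT replicates 1, 2 and 3 and at 130, 128 and 53.3 FPKM in slgols2 replicates 1, 2 and 3. The lowest value was that of slgols2 replicate 3, and the other slgols2 libraries lay within the WT range. The means were 161 ± 62.7 and 104 ± 44.0 FPKM (SD, n = 3 each). The log2 difference was -0.66 with a standard error of 0.46 and a 95% interval from -1.77 to 0.46 (limma adjusted p = 0.615). It was -0.23 without slgols2 replicate 3, -0.38 without WT replicate 3 and -1.50 with slgols2 replicate 3 alone against WT. The level of Solyc07g064170 was between 12.6 and 29.9 times that of Solyc07g064180 in the 6 libraries, and this ratio overlapped between the genotypes (exact permutation p = 0.50). Genes of a tandem cluster can share reads, and the counting is not given in the sources used here, so the split between them is uncertain.

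Pectin methylesterase members and scarce models lay side by side on chromosome 7. Of the gene models from Solyc07g064150 to Solyc07g064220, the first stood between 300 and 448 FPKM. Solyc07g064160, for which no annotation is used here, stood above both members in every library, at 5520, 4604 and 5599 FPKM in the WT and 3469, 3204 and 2402 FPKM in slgols2. Its groups did not overlap, with a log2 difference of -0.80 (standard error 0.23) that did not pass over all genes (limma adjusted p = 0.286). Solyc07g064190 reached at most 0.0502 FPKM, Solyc07g064200 at most 0.0299 FPKM and Solyc07g064220 at most 0.0393 FPKM. Of these, Solyc07g064190 was itself entered as a pectin methylesterase on the wider list of recalled cell wall loci below. The pectin methylesterases numbered here were thus not all abundant. Solyc07g064210 ran from 0.0585 to 5.75 FPKM.

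**Figure D2:**
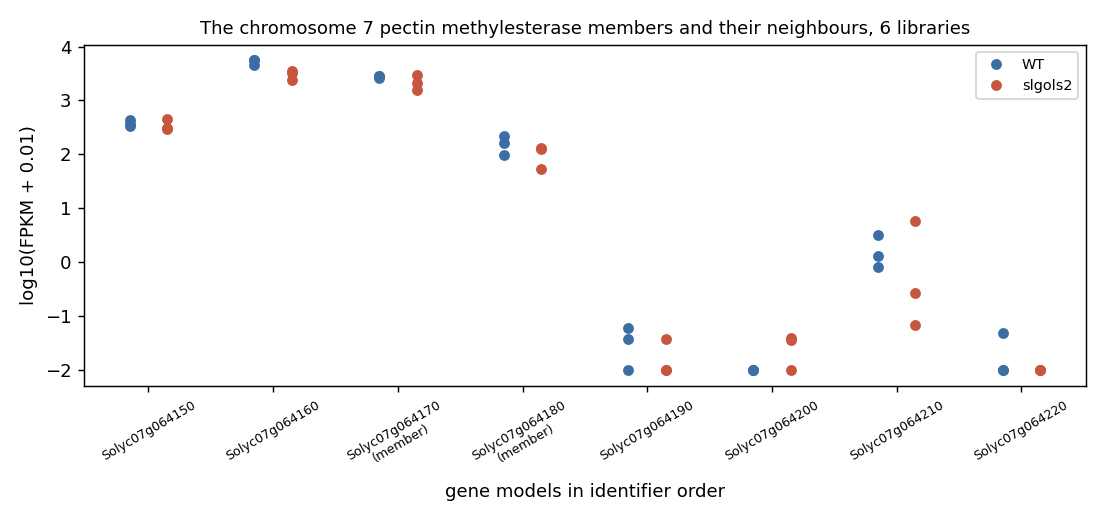
Level of the 2 chromosome 7 pectin methylesterase genes and the gene models numbered around them, as log10(FPKM + 0.01), with 3 points per genotype. Solyc07g064160 and the 2 members form a high block next to Solyc07g064190, Solyc07g064200 and Solyc07g064220, which stay at or near 0. Solyc07g064190 was also entered, from recall, as a pectin methylesterase.

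PMEU1, a pectin methylesterase gene on chromosome 3 known to be expressed in many tomato tissues, stood at 365, 206 and 225 FPKM in WT replicates 1, 2 and 3. In slgols2 replicates 1, 2 and 3 it stood at 292, 153 and 285 FPKM, so the groups overlapped. The means were 265 ± 86.9 and 244 ± 78.4 FPKM (SD, n = 3 each). Their log2 difference was -0.13 with a standard error of 0.36 and a 95% interval from -1.0 to 0.73 (limma adjusted p = 0.910).

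In order of their means over the 6 libraries the genes ran from PG2a over CEL2, EXP1, PL, TBG4, Solyc07g064180 and PMEU1 to Solyc07g064170. CEL2 and EXP1, and PL and TBG4, did not keep their order across libraries. PMEU1 exceeded Solyc07g064180 in all 6 libraries, but by a ratio as low as 1.01 in WT replicate 3 and up to 5.36 in slgols2 replicate 3. Solyc07g064170 exceeded PMEU1 at least 5.58-fold in every library. These orders are of FPKM by the gene lengths behind the deposited values, which for TBG4 and CEL2 were 1.00 times the RefSeq gene span, introns included.

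**Figure D3:**
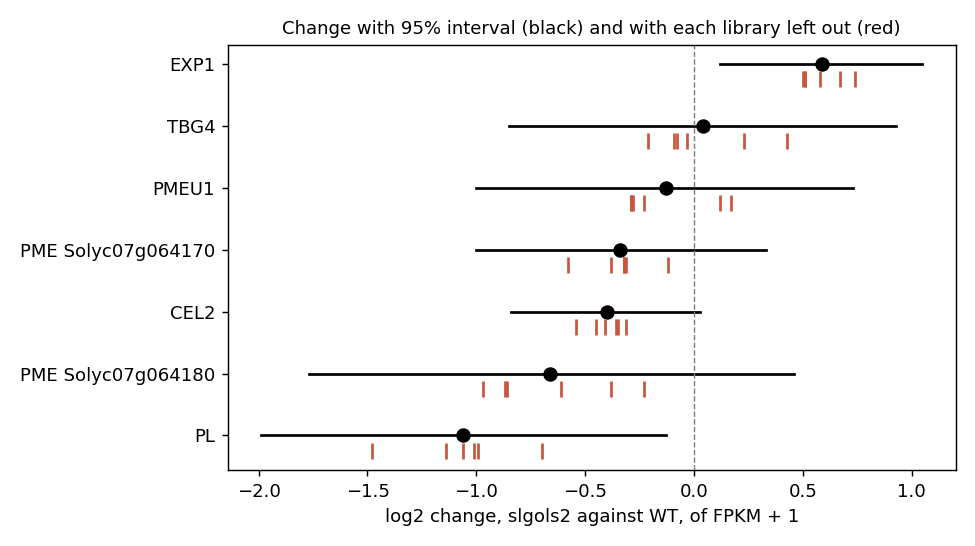
Log2 change of FPKM + 1 in slgols2 against WT for the 7 tested genes, with the estimate and its 95% interval in black and the estimates with each library left out in red. The intervals of PL and EXP1 lie on either side of 0 without reaching it before adjustment, and the red marks of TBG4 and PMEU1 fall on both sides of 0.

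Marker lists recalled from the literature moved with some of these values. The epidermis and cuticle list reached 1 FPKM for 4 of 5 loci, with Solyc06g053240 at or near 0. Its summed level was 494 to 567 FPKM in WT and 125, 171 and 356 FPKM in slgols2 replicates 1, 2 and 3, so that, as for PL and CEL2, slgols2 replicate 3 lay nearest to WT. The heat shock list (8 of 9 loci, Solyc06g076520 at or near 0) summed to between 572 and 914 FPKM in WT. In slgols2 replicates 1, 2 and 3 it summed to 16542, 11220 and 494 FPKM, high in the libraries with the lowest PL and CEL2. Single loci differed from the sum. Of its 8 tested loci, 4 lay above all WT libraries in every slgols2 library, replicate 3 included, beside 9.60% of all tested genes. The rest overlapped between the groups. The antenna and Rubisco list (8 of 10 loci, Solyc02g071010 and Solyc02g071030 at or near 0) was lower in all 3 slgols2 libraries, summing to 856 to 1019 against 1364 to 2667 FPKM. The part of these lists in the values of the 8 genes was not tested. Fewer cells of a type and less RNA per cell cannot be told apart in such bulk samples.

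Seed storage loci, which a pericarp sample should lack, reached 1 FPKM for 4 of 5 (Solyc09g082330 at or near 0). Their sum ran from 8.86 to 46.2 FPKM in WT and came to 1.11, 81.3 and 2.38 FPKM in slgols2 replicates 1, 2 and 3. It was highest in slgols2 replicate 2, where TBG4 and Solyc07g064170 also had their highest values and PL and PMEU1 their lowest. TBG4 was 5.81 FPKM in slgols2 replicate 1, where the seed sum was lowest. The part of the seed loci in these values was not tested. The ripening list (10 of 13 loci, Solyc03g111720 at or near 0) summed to 221 to 540 FPKM in WT and 226 to 537 FPKM in slgols2. Solyc07g049530 and Solyc02g077920 gave the largest part of it on average (145 FPKM each in the WT means), and some other loci of the list did not overlap between the groups. In slgols2 4 of the 13 were lower, of which Solyc05g012020 (0.540 against 0.109 FPKM in the means), Solyc10g006880 (1.07 against 0.0473 FPKM) and Solyc05g050010 (0.546 against 0.126 FPKM) had means over the 6 libraries under 1 FPKM and were not tested. The fourth, Solyc01g095080, had means of 4.35 and 1.51 FPKM (limma adjusted p = 0.397), and Solyc09g089580 was higher, at 57.0 against 32.0 FPKM (adjusted p = 0.394). Among the 9 tested loci of the list, 1 lay wholly lower and 1 wholly higher, beside 9.59% and 9.60% of all tested genes. The part of these loci in the values of the 8 genes was not tested. No tested locus of the ripening, seed, epidermis or heat shock lists passed the threshold, which 0.229% of all tested genes did. In the antenna and Rubisco list 1 tested locus passed.

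The wider set of cell wall genes was taken from a list of 42 recalled loci. RefSeq symbols recalled for 22 of them lay on the same chromosome within 5% of the same rank in all 22 cases, and the other 20 have no such check. Of the 42, 27 were tested and none passed (limma), against 0.229% of all tested genes. Of the 27, 5 had an unadjusted p under 0.05, which 12.0% of all tested genes reached. Limma-voom on recovered reads also called none of the 27, but it called only 1 of 15675 genes in all. Their median log2 change was -0.11, beside 0.00 over all tested genes. The groups did not overlap for 7 of the 27, with 4 higher and 3 lower in slgols2 (25.9%, beside 19.2% of all tested genes). Another 4 loci were at 0 in every library.

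**Figure D4:**
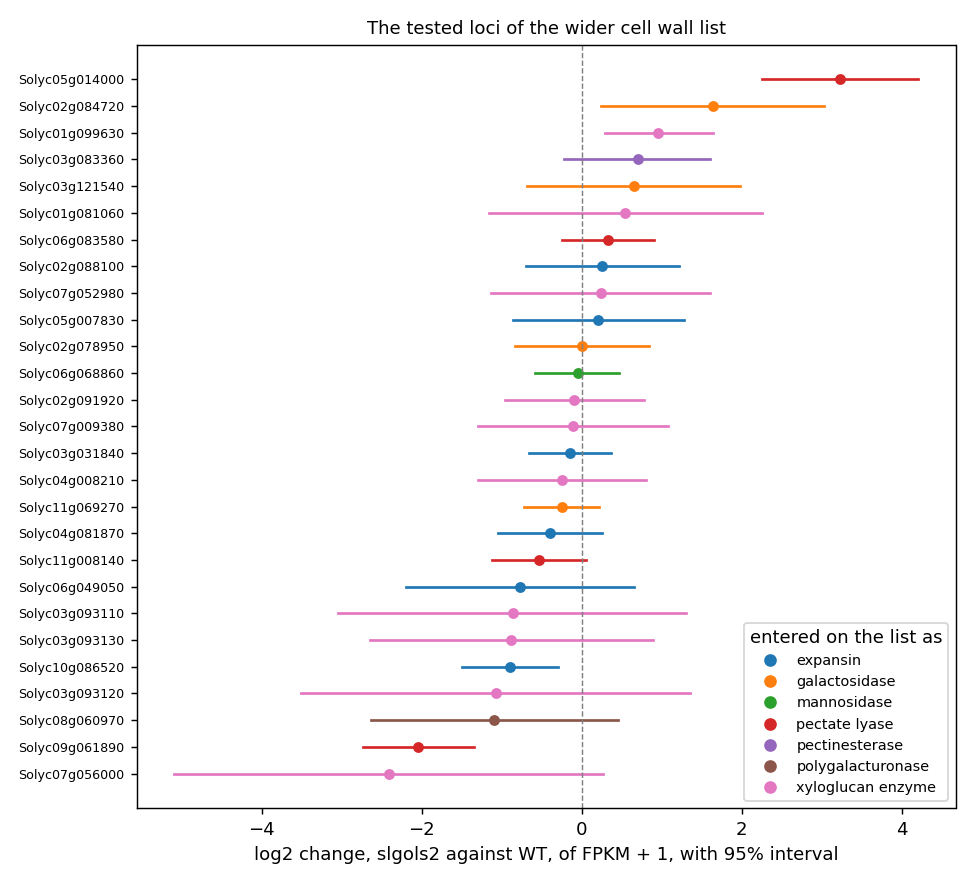
Log2 change of FPKM + 1 in slgols2 against WT, with 95% intervals, for the 27 tested loci of the wider cell wall list, coloured by the family under which each was entered. Most intervals span 0, and Solyc05g014000 at 3.23 and Solyc09g061890 at -2.04 stand farthest from it relative to their intervals.

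The loci entered as pectate lyases held the changes with the smallest p-values on that list, and no reference symbol was used here to check them. Solyc05g014000 stood at 9.50, 9.01 and 10.7 FPKM in WT and at 109, 53.7 and 167 FPKM in slgols2 replicates 1, 2 and 3. All 3 slgols2 libraries lay above all 3 WT libraries, and the mean was 11.3-fold higher. On the log2 scale this was 3.23, standard error 0.41, just short of the threshold (limma adjusted p = 0.0552). It passed without slgols2 replicate 2 (adjusted p = 0.0281), without slgols2 replicate 3 (0.0318) and with array quality weights (0.0109). Those fits called 23, 279 and 2028 of the 15695 tested genes. Over all alternatives the adjusted p of Solyc05g014000 reached 0.268. Solyc09g061890, named after its values were seen, went the other way, from 5.70, 5.46 and 7.89 FPKM in WT to 0.411, 0.484 and 1.67 FPKM in slgols2. Its log2 difference was -2.04, standard error 0.29 (limma adjusted p = 0.0771), and it passed without slgols2 replicate 3 (0.0135) and with array quality weights (0.0030), with values of up to 0.284 under the others.

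The other 5 of the 6 loci of that list with the highest levels did not pass with all 6 libraries weighted equally either. Solyc02g088100, entered as an expansin, was the most abundant, with 258 ± 105 FPKM for WT and 304 ± 102 FPKM for slgols2 (SD, n = 3 each), far above EXP1 in every library. The expansin locus Solyc03g031840 stood at 54.2 ± 5.25 and 49.5 ± 9.67 FPKM. Solyc01g099630, entered as a xyloglucan enzyme, rested at 28.5 ± 10.4 FPKM for WT and 54.8 ± 7.39 FPKM for slgols2, without overlap (limma adjusted p = 0.291). The beta-galactosidase locus Solyc02g084720 stood at 9.45 ± 1.45 and 39.7 ± 33.7 FPKM, also without overlap, with 78.0 FPKM in slgols2 replicate 3 (adjusted p = 0.364). That library had the lowest TBG4 value. Solyc07g056000, a second xyloglucan locus, stood at 60.3, 25.5 and 65.7 FPKM in WT and at 1.68, 4.03 and 52.7 FPKM in slgols2 replicates 1, 2 and 3. It was low in the same 2 libraries as PL and CEL2, and passed without slgols2 replicate 3 (adjusted p = 0.0440) and with array quality weights (0.0231), but not with all 6 libraries weighted equally (0.458) or with slgols2 replicate 3 alone against WT, where its log2 difference was 0.17 (0.897).

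The genes most like each tested member over the 6 libraries were found by Pearson's r of log2(FPKM + 1), as a description in which libraries and genotype are shared. For PL these were Solyc09g091510 (r of 0.996) and Solyc02g086970 (0.995), the second with 444, 233 and 348 FPKM in the WT and 47.6, 21.0 and 187 FPKM in slgols2. For CEL2 they were Solyc04g049135 (0.998) and Solyc12g056410 (0.997), for TBG4 Solyc02g085250 (0.997) and Solyc08g008010 (0.993), and for EXP1 Solyc08g079180 (0.994) and Solyc03g123920 (0.992). For Solyc07g064170 they were Solyc01g008000 (0.989) and Solyc06g084100 (0.988), and for Solyc07g064180 Solyc06g011550 and Solyc06g036260 (0.997 each). With 6 libraries such values are common: between 1.10% and 3.45% of tested genes exceeded an r of 0.9 with one of these members. PMEU1 had fewer, 15 genes, led by Solyc07g005230 (0.956) and Solyc02g091345 (0.937).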

How the data were processed

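The 3 WT and 3 slgols2 RNA libraries of fruit wall were grouped by their titles. Per the file headers, the authors deposited FPKM per gene model and library. The submitters' processing notes list HISAT2 2.1.0 beside DESeq 1.38.3, without their roles. Which counter, genome build, annotation and strand setting were used is not given in the sources used here, so antisense and overlapping genes may share reads.

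Depths and reads were recovered from the steps of low FPKM values, each step being 1 fragment: reads were whole within 0.02 in all 6 libraries for 15675 of 15695 genes (99.9%), and the method was tested on simulated data. Genes averaging at least 1 FPKM over the 6 libraries were fitted with limma 3.58.1 (R 4.3.3) on log2(FPKM + 1), genotype only, intensity trend, two-sided, Benjamini-Hochberg over all tested genes at 0.05. Fold changes on this scale understate those of low genes. Permutation tests used scipy 1.17.1. The alternatives covered pseudocount, filter, scaling, trend, array weights, a replicate block, each library left out, and, chosen after seeing the data, limma-voom and slgols2 replicate 3 alone.

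The members, lists and tests were chosen with earlier results of these data known. The genes named are the 8 members, the 6 highest tested loci of the wider list (none passed the threshold), chromosome 7 neighbours, the 2 genes most like each tested member, and marker loci where read beside a member. Solyc09g061890, marker loci at or near 0 and those of the ripening list were named after their values were seen. Functions of listed loci were recalled, not annotated by the table.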

Additional observations from a re-analysis of the deposited data

How the results depend on the processing

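No member was called in the main comparison or under any alternative except array quality weights, which called 2 (PL and CEL2, lower) and 2028 genes in all. Against 36 over all genes, the count was 34 to 44 with a pseudocount of 0.5 (44), median-ratio scaling (37) or no intensity trend (34). It was 15 at a mean FPKM of at least 5, 55 with no filter, 20 with a pseudocount of 0.1, 1 with limma-voom on recovered reads, 0 with slgols2 replicate 3 alone against WT (where 3199 had an unadjusted p under 0.05) and 7 to 279 with each library left out. A stricter filter tests fewer genes; for the rest, the cause was not tested. Of the 27 tested loci of the wider cell wall list, 5 were called with array quality weights, beside 2028 of all 15695 tested genes. Without slgols2 replicate 3 the list had 3 calls, beside 279 over all genes. It had 1 without slgols2 replicate 2, beside 23 over all genes, and 0 with any other library left out. PL, EXP1, CEL2 and Solyc07g064180 kept their sign under every alternative run on them. For PL, EXP1 and CEL2, whose groups did not overlap, leaving out or reweighting libraries could not have reversed it. TBG4, at 0.04, ran from -0.21 to 0.43 with each library left out and was -0.73 with slgols2 replicate 3 alone and 0.55 with array quality weights. PMEU1, at -0.13, ran from -0.29 to 0.17 and was 0.15 and -0.61 in those fits. Solyc07g064170, at -0.34, was 0.05 with array quality weights and ran from -0.58 to -0.12 with each library left out. A fit with the replicate block called 1 gene, which was no member. Nothing shows that the numbers mark pairs: same-numbered libraries deviated from their group means with correlations of -0.150, 0.089 and -0.165. Depth limits EXP1, with 16 to 57 reads, and PG2a.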
